A study of Mus musculus with 6 samples.

Results

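The genes of respiratory complex I were followed in pressure-loaded mouse hearts that lack the microRNA miR-27b-3p. Of the 17570 Entrez Gene IDs with a value, 49 carried a RefSeq mouse symbol that starts with Nduf, the prefix of complex I genes. They comprised 7 nuclear-encoded core subunits, 29 accessory subunits, 8 assembly factors (Ndufaf) and 5 genes outside these classes. The other 5 RefSeq symbols with this prefix, 4 of them pseudogenes and the remaining one Ndufb1, were not analysed here, and neither were the core subunits that the mitochondrial DNA encodes.

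mRNA profiles came from heart tissue taken 8 weeks after transverse aortic constriction (TAC), a surgical narrowing of the aorta that loads the left ventricle with pressure. KO/TAC hearts (n = 3) came from miR-27b-3p knockout mice, in which a TALEN-made small deletion removed part of the mature microRNA in every tissue, and WT/TAC hearts (n = 3) came from wild-type mice. Both groups had the C57BL/6 background and the same surgery, and no sham-operated heart was among the 6 samples, so every value describes loaded hearts. The knockout was not restricted to cardiac muscle, and the level of the microRNA itself was not analysed here.

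Complex I takes electrons from NADH, passes them along a chain of iron-sulfur clusters to ubiquinone and pumps protons across the inner mitochondrial membrane. Its peripheral arm reaches into the matrix and carries the flavin and the clusters, and its membrane arm holds the proton pumps. Accessory subunits surround this core and stabilise it, and assembly factors help to build the complex without staying in it. Heart muscle, which depends on oxidative metabolism, is among the tissues richest in this enzyme.

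Levels are given as FPKM, the number of sequenced fragments scaled by the length of the transcript and by the mapped fragments of the library, so they are relative to the rest of each library. The deposited values hold no read counts, so the depth behind each one is unknown. In bulk tissue, fewer cells of a type and less RNA per cell cannot be told apart. Each gene was compared with limma on log2(FPKM + 0.5), and a gene counted as called at an unadjusted p under 0.05 with a fitted fold of at least 1.2, the limits used in the study. The study describes the replicates as hearts of mice, although the sample labels do not number the animals.

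The labelled tissue was checked against its defining markers first. The library labelled WT/TAC 1 stood apart: its 8 atrial markers summed to 80771 FPKM and its 6 ventricular markers to 5371 FPKM. In the other 5 hearts the atrial sums lay between 136 and 8892 FPKM and the ventricular sums between 23395 and 28802 FPKM. Single genes weighed heavily in these sums. Nppa gave 55795 FPKM of the atrial sum in WT/TAC 1 and 6236 of 6275 FPKM in WT/TAC 2. Myh6 gave 5086 FPKM of the ventricular sum in WT/TAC 1. Myl2, the ventricular regulatory light chain, had 81.0 FPKM in WT/TAC 1 and between 9735 and 14329 FPKM in the others. The atrial light chain Myl7 had 0.25, 333 and 0.66 FPKM in KO/TAC hearts 1 to 3, against 8140, 0.23 and 1135 FPKM in WT/TAC hearts 1 to 3. All 6 fibroblast markers were called lower in KO/TAC hearts, and their sums were 375, 283 and 316 FPKM in KO/TAC hearts and 671, 565 and 427 FPKM in WT/TAC hearts. The 6 pan-cardiomyocyte markers summed to between 37029 and 38127 FPKM in KO/TAC hearts and between 26900 and 34166 FPKM in WT/TAC hearts, with none called. The part of these shifts in the complex I values was not tested, and each main count is therefore also given without WT/TAC 1.

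The microRNA that the knockout targets and the places where its seed could pair within complex I transcripts are shown before the values. The capitals mark bases 2 to 8 of the microRNA, the seed, and the matching 7 bases in the transcript, written as DNA. The deletion given in the paper lies at the 3′ end of the mature sequence, outside the seed. The paper did not detect the microRNA in tissues of the knockout mice. Coordinates of the 7 bases are on GRCm38, with 3′ UTRs taken from GENCODE M21, whereas the processing notes of the submitters name mm9 and hg38 as builds. The microRNA sequence is from RefSeq.

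miR-27b-3p: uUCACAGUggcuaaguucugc

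Ndufs4, minus strand of chr13:114288730-114288736, 3′ UTR: atctctgcttgACTGTGActgaagtgtca

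Ndufaf7, plus strand of chr17:78946763-78946769, 3′ UTR: agttagaggacACTGTGAtcccatctggg

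A match to the seed was found in the 3′ UTR of 3 of 46 complex I genes searched, or 6.52%, beside 18.9% of the 12321 tested genes searched. Ndufa2 held the remaining one. Complex I genes have short 3′ UTRs, with a median length of 301 bases against 1354 bases over the tested genes. The accessory subunit Ndufs4 was called higher in KO/TAC hearts, whereas the assembly factor Ndufaf7 and the accessory subunit Ndufa2 were not called. Whether the microRNA binds at any of these matches was not measured here, and its part in the values was not tested. The paper screened its top candidate targets by qPCR with a miR-27b-3p mimic in H9c2 cells. It reports significant inhibition of FGF1, PPAR-γ and Dram2 only. Its primer list includes Ndufs4, but its text does not name the gene among those candidates.

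The 49 genes together made up a larger share of the library in every KO/TAC heart than in every WT/TAC heart. Among them is Ndufa4, which is now assigned to cytochrome c oxidase. The 49 genes summed to 21661, 21389 and 22864 FPKM in KO/TAC hearts, against 16265, 18564 and 18321 FPKM in WT/TAC hearts. As a share of all FPKM this was 4.01, 4.03 and 4.17% in KO/TAC hearts and 2.94, 3.48 and 3.53% in WT/TAC hearts. The groups did not overlap, and WT/TAC 1 was the lowest of the 6. The mean sum was 21971 ± 785 FPKM in KO/TAC hearts and 17717 ± 1263 FPKM in WT/TAC hearts (SD, n = 3 each). The ratio was 1.24, and it was 1.19 against WT/TAC hearts 2 and 3 alone. For the 36 core and accessory subunits the mean sums were 19886 FPKM in KO/TAC hearts and 16080 FPKM in WT/TAC hearts. Their ratio was 1.24, or 1.18 against WT/TAC hearts 2 and 3 alone.

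**Figure D1:**
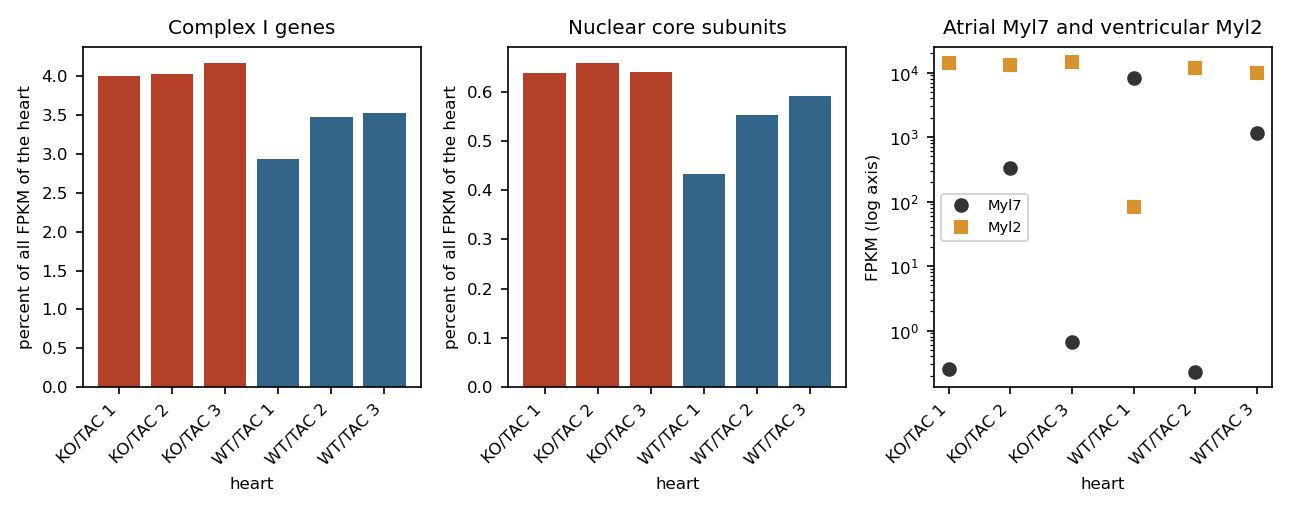
Share of all FPKM held by the 49 complex I genes (left) and by the 7 nuclear core subunits (middle) in each heart, in percent, with KO/TAC hearts in red and WT/TAC hearts in blue, and FPKM of Myl7 and Myl2 on a log axis (right). The KO/TAC hearts held 4.01 to 4.17% and the WT/TAC hearts 2.94 to 3.53%, and WT/TAC 1 had both the lowest share and the lowest Myl2.

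Of the 49 genes, 48 passed the minimum mean of 0.5 FPKM. Of these, 21 were called higher in KO/TAC hearts and 0 were called lower, where 4.94% of all 12520 genes tested were called higher, 6.14% lower and 11.1% in either direction. Abundant genes as a class had a larger share: of the 897 genes at least as abundant as the least abundant subunit, 11.6% were called higher. No complex I gene reached an adjusted p under 0.05, the lowest being 0.275 by limma with Benjamini-Hochberg adjustment, and 2 of all genes tested did (0.016%). At an unadjusted p under 0.05 without a limit on the fold the count of complex I genes was also 21. A call therefore rests on the unadjusted p, and the p beside each gene is the adjusted one, which no complex I gene passed.

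The direction was shared widely. The log2 fold change was above 0 for 47 of 48 complex I genes, where 49.2% of all genes tested were above 0. The median was 0.32 over the complex I genes and -0.005 over all genes tested. Over the 897 genes at least as abundant as the least abundant subunit it was 0.08. Every KO/TAC heart was above every WT/TAC heart for 31 of 48 complex I genes, or 64.6%, beside 8.46% of all genes tested in this direction and 18.3% in either.

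The count depended on which libraries entered the fit. It was 5, 9 and 6 without KO/TAC 1, 2 and 3, beside 2.92, 3.14 and 2.07% of all genes tested called higher in these fits. It was 16, 15 and 18 without WT/TAC 1, 2 and 3, beside 7.55, 6.32 and 5.2% of all genes tested. Calls over all genes were thus also fewer in each fit that left out a KO/TAC heart. Without WT/TAC 1 the median log2 fold change over complex I genes was 0.24, and 46 of 48 values were above 0. With 14 of the 21 genes called again, those lost were Ndufa9, Ndufb10, Ndufb8, Ndufs5, Ndufaf1, Ndufaf3 and Ndufaf6, and 2 others, Ndufb4 and Ndufaf4, were called. Of those lost, Ndufa9, Ndufb10, Ndufb8 and Ndufs5 kept an unadjusted limma p under 0.05 and missed only the fold of 1.2. Ndufaf1, Ndufaf3 and Ndufaf6 had an unadjusted p above 0.05 in this fit. All KO/TAC hearts were above both WT/TAC hearts 2 and 3 for 34 of 48 complex I genes, beside 17.8% of all genes tested.

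With log2 Myl7 as a covariate 10 complex I genes were called higher (4.24% of all genes tested), 9 of them among the 21. Only Ndufs4, Ndufab1 and Ndufv2 were called in each of the 6 fits that left out a library. Of the other 18, 4 were called in 4 such fits, 2 in 3, 11 in 2 and Ndufs5 in 1.

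**Figure D2:**
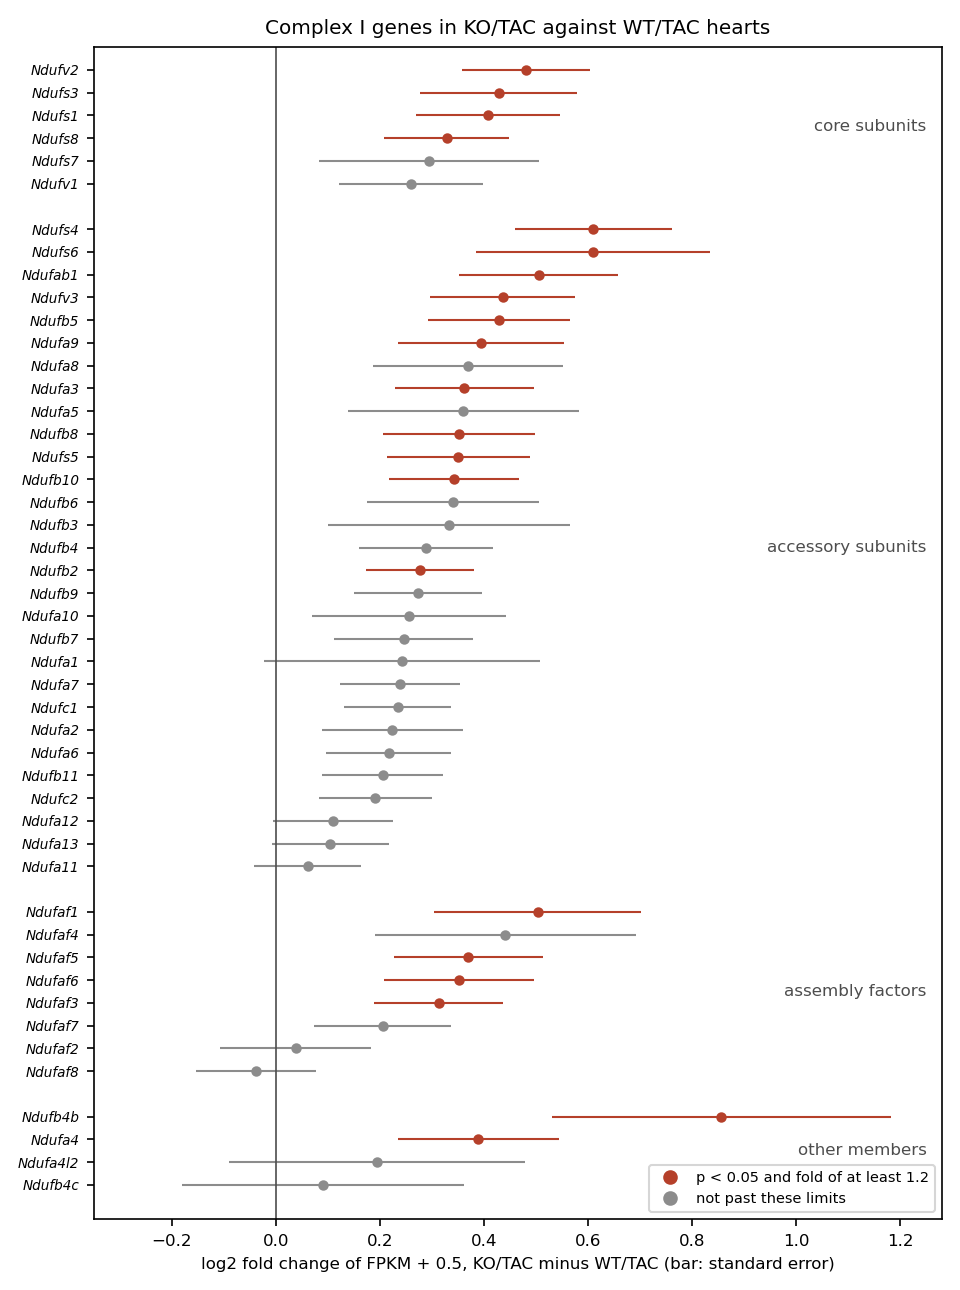
Fitted log2 fold change of 47 of the 48 tested complex I genes, KO/TAC minus WT/TAC, on the scale of FPKM + 0.5, grouped by class and ordered by size, with the standard error as a bar. Red points are the 21 genes past an unadjusted p of 0.05 and a fold of 1.2, and Ndufaf8 is the one gene left of 0.

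The 7 nuclear core subunits carry the redox chemistry. Of these, 4 were called higher in KO/TAC hearts (Ndufv2, Ndufs3, Ndufs1 and Ndufs8) and 0 lower, and their median log2 fold change was 0.33. Over all genes tested 4.94% were called higher. The count was 4 without WT/TAC 1 and 2 without either KO/TAC 1 or KO/TAC 3. Their sum was 3447, 3495 and 3507 FPKM in KO/TAC hearts, against 2399, 2952 and 3066 FPKM in WT/TAC hearts. The KO/TAC hearts lay close together (SD 31.8 FPKM, beside 357 FPKM in WT/TAC hearts, n = 3 each), and WT/TAC 1 was the lowest.

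Ndufv2, which holds an iron-sulfur cluster next to the flavin site, had 356, 344 and 397 FPKM in KO/TAC hearts, against 248, 289.8 and 248 FPKM in WT/TAC hearts. All KO/TAC hearts were above all WT/TAC hearts, and the log2 fold change was 0.48 (SE 0.12, adjusted p = 0.283). It was 0.44 without WT/TAC 1. Ndufs1, the largest subunit, with the clusters that lead electrons away from the flavin, had 258, 257 and 319 FPKM in KO/TAC hearts, against 204, 231 and 192 FPKM in WT/TAC hearts. The groups did not overlap and KO/TAC 3 was the highest, with a log2 fold change of 0.41 (SE 0.14, adjusted p = 0.368).

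Ndufs3, a scaffold of the part that binds ubiquinone, had 469, 431 and 482 FPKM in KO/TAC hearts, against 285, 397 and 353 FPKM in WT/TAC hearts. WT/TAC 1 was the lowest, the groups did not overlap, and the log2 fold change was 0.43 (SE 0.15, adjusted p = 0.377). The annotation holds a copy of the Ndufs3 coding sequence at 98.6% identity, so its reads may be split or shared. Ndufs8, which carries clusters near the ubiquinone site, had 254, 278 and 238 FPKM in KO/TAC hearts, against 187, 204 and 221 FPKM in WT/TAC hearts. It was higher in all KO/TAC hearts by a log2 fold change of 0.33 (SE 0.12, adjusted p = 0.396).

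Positive differences that did not pass the test were seen in Ndufv1 and Ndufs7. Ndufv1, the subunit that binds NADH and flavin, had 609, 657 and 637 FPKM in KO/TAC hearts, against 451, 559.9 and 588 FPKM in WT/TAC hearts (log2 fold change 0.26, SE 0.14, adjusted p = 0.547). Its groups did not overlap, and the value was 0.14 without WT/TAC 1. Ndufs7, which holds the last cluster before ubiquinone, had 577, 575 and 539 FPKM in KO/TAC hearts, against 332, 508 and 576 FPKM in WT/TAC hearts. Here WT/TAC 3 reached the KO/TAC values, and the log2 fold change was 0.29 with all hearts (SE 0.21, adjusted p = 0.650) and 0.06 without WT/TAC 1.

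**Figure D3:**
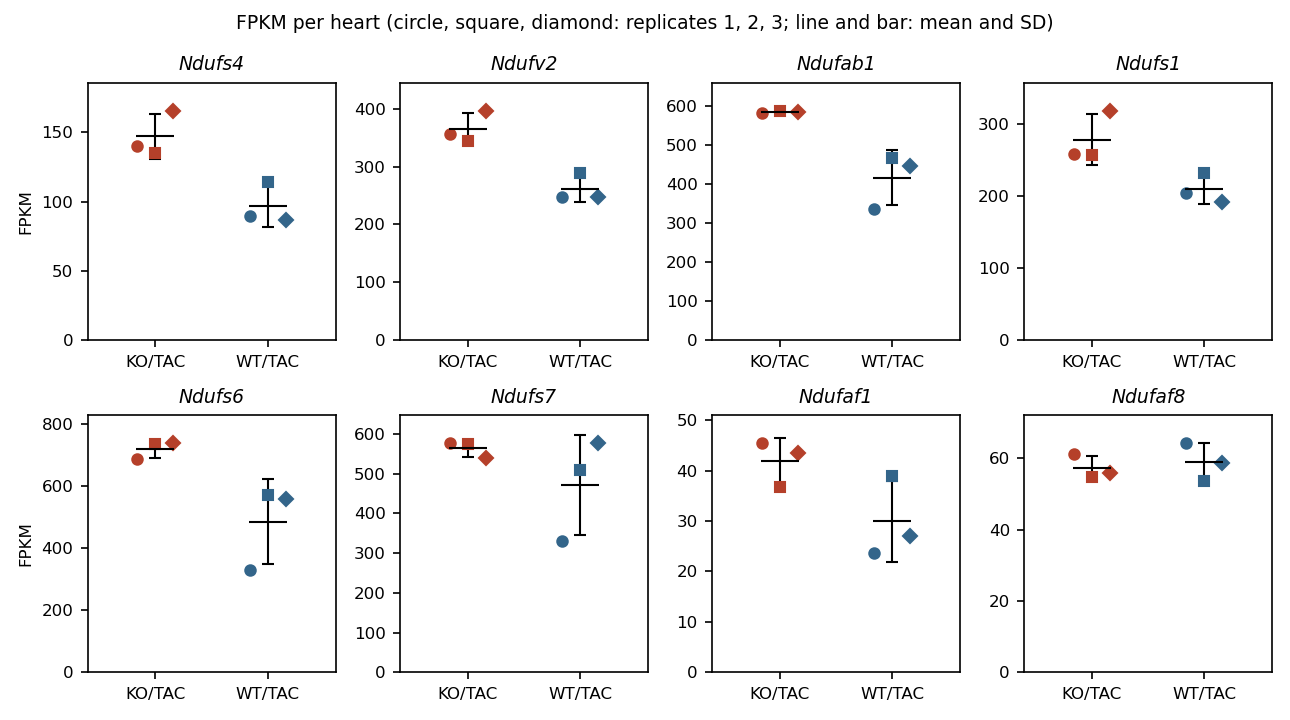
FPKM of 8 complex I genes in each heart, with KO/TAC in red at the left and WT/TAC in blue at the right of each panel, the mean as a line and the SD as a bar (n = 3 each). Ndufs4, Ndufv2 and Ndufab1 were called in every fit that left out a library, and in Ndufs6 the spread of the WT/TAC group came from WT/TAC 1 (329 FPKM beside 573 and 558).

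Of the 29 accessory subunits, 11 were called higher in KO/TAC hearts and 0 lower, beside 4.94% of all genes tested called higher. The median log2 fold change was 0.29 and all 29 values were above 0. The groups did not overlap for 21, beside 8.46% of all genes tested with KO/TAC above WT/TAC. Without WT/TAC 1 the count was 8, and without KO/TAC 1, 2 and 3 it was 3, 4 and 2. By position, 4 of 9 in the peripheral arm, 2 of 9 in the proximal membrane arm and 4 of 10 in the distal membrane arm were called, with medians of 0.36, 0.24 and 0.31. With log2 Myl7 as a covariate these counts were 2, 0 and 3. These positional differences were not tested.

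Ndufs4, a peripheral-arm subunit whose loss in mice causes a fatal brain disease and a lack of complex I activity, had, with Ndufs6, the largest fold change among subunits. It had 141, 135 and 166 FPKM in KO/TAC hearts, against 89.4, 114 and 86.6 FPKM in WT/TAC hearts. The groups did not overlap, and the log2 fold change was 0.61 (SE 0.15, adjusted p = 0.275), or 0.56 without WT/TAC 1. It was also the second least abundant of the 36 subunits, at a mean of 122 FPKM over the 6 hearts.

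Ndufs6, a zinc-binding subunit of the peripheral arm, had 687, 736 and 740.4 FPKM in KO/TAC hearts, against 329, 573 and 558 FPKM in WT/TAC hearts. Its log2 fold change of 0.61 (SE 0.23, adjusted p = 0.396) was 0.35 without WT/TAC 1, since that heart lay far below the other 2. Ndufv3, a small subunit beside the flavin site, had 678, 708 and 792 FPKM in KO/TAC hearts, against 497, 501 and 618 FPKM in WT/TAC hearts (log2 fold change 0.44, SE 0.14, adjusted p = 0.355). Ndufa9, a peripheral subunit that binds NADPH, had 537, 503 and 578 FPKM in KO/TAC hearts, against 332, 461 and 449 FPKM in WT/TAC hearts (log2 fold change 0.39, SE 0.16, adjusted p = 0.427), and its value of 0.24 without WT/TAC 1 was not called. In all 3 genes every KO/TAC heart was above every WT/TAC heart.

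Ndufab1, the mitochondrial acyl carrier protein, sits in both arms and also serves fatty acid and lipoic acid synthesis. It had 580.2, 587 and 584 FPKM in KO/TAC hearts, against 335, 466 and 446 FPKM in WT/TAC hearts. The KO/TAC hearts lay close together, all above the WT/TAC hearts, and the log2 fold change was 0.50 (SE 0.15, adjusted p = 0.327), or 0.36 without WT/TAC 1. A gene copy at 99.8% identity is annotated, which limits how exactly its reads can be placed.

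In the distal membrane arm, Ndufb5, Ndufb8, Ndufb10 and Ndufb2 were called higher. Ndufb5 had 617, 583 and 682 FPKM in KO/TAC hearts, against 431, 534 and 436 FPKM in WT/TAC hearts (log2 fold change 0.43, SE 0.14, adjusted p = 0.355). Ndufb8, often probed as a protein to judge whether complex I is assembled, had 1139, 1168 and 1138 FPKM in KO/TAC hearts, against 752, 993 and 976 FPKM in WT/TAC hearts (log2 fold change 0.35, SE 0.15, adjusted p = 0.439). Both had their groups apart, and Ndufb8 was at 0.22 and not called without WT/TAC 1.

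Ndufb10 had 794, 780.3 and 790.3 FPKM in KO/TAC hearts, against 547, 662 and 663 FPKM in WT/TAC hearts (log2 fold change 0.34, SE 0.13, adjusted p = 0.396), and its value of 0.25 without WT/TAC 1 was not called. Ndufb2 had 460.1, 471 and 442 FPKM in KO/TAC hearts, against 373, 369.6 and 391 FPKM in WT/TAC hearts (log2 fold change 0.28, SE 0.10, adjusted p = 0.401). Unlike Ndufb5, Ndufb8 and Ndufb10, Ndufb2 was not lowest in WT/TAC 1, and its value without that heart was 0.27.

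In the proximal membrane arm, Ndufa3 and Ndufs5 were called higher. Ndufa3 had 1029, 1072 and 1195 FPKM in KO/TAC hearts, against 778, 843 and 948 FPKM in WT/TAC hearts (log2 fold change 0.36, SE 0.13, adjusted p = 0.396). Ndufs5, which faces the space between the membranes, had 530.0, 484 and 538 FPKM in KO/TAC hearts, against 351, 460.2 and 412 FPKM in WT/TAC hearts (log2 fold change 0.35, SE 0.14, adjusted p = 0.416). The groups did not overlap in either gene, and the call for Ndufs5 was lost in 5 of the 6 fits that left out a library.

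The other 18 accessory subunits were not called, with log2 fold changes between 0.06 and 0.37. The highest with all 6 hearts, Ndufa8, a membrane-arm subunit with disulfide bonds, had 494, 495 and 492 FPKM in KO/TAC hearts, against 294, 406 and 468 FPKM in WT/TAC hearts (adjusted p = 0.512). Its KO/TAC hearts lay close together, and its 3 WT/TAC hearts were all lower but far apart. Its log2 fold change was 0.37 with all hearts and 0.18 without WT/TAC 1. Ndufb9, the most abundant subunit, had 1409.5, 1357 and 1415 FPKM in KO/TAC hearts, against 1046, 1196 and 1229 FPKM in WT/TAC hearts (log2 fold change 0.27, SE 0.12, adjusted p = 0.480). Ndufa11, the least abundant, had 80.7, 84.4 and 78.1 FPKM in KO/TAC hearts, against 73.3, 82.2 and 77.8 FPKM in WT/TAC hearts. Its groups overlapped, with a log2 fold change of 0.06 (SE 0.10, adjusted p = 0.856), or 0.02 without WT/TAC 1.

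**Figure D4:**
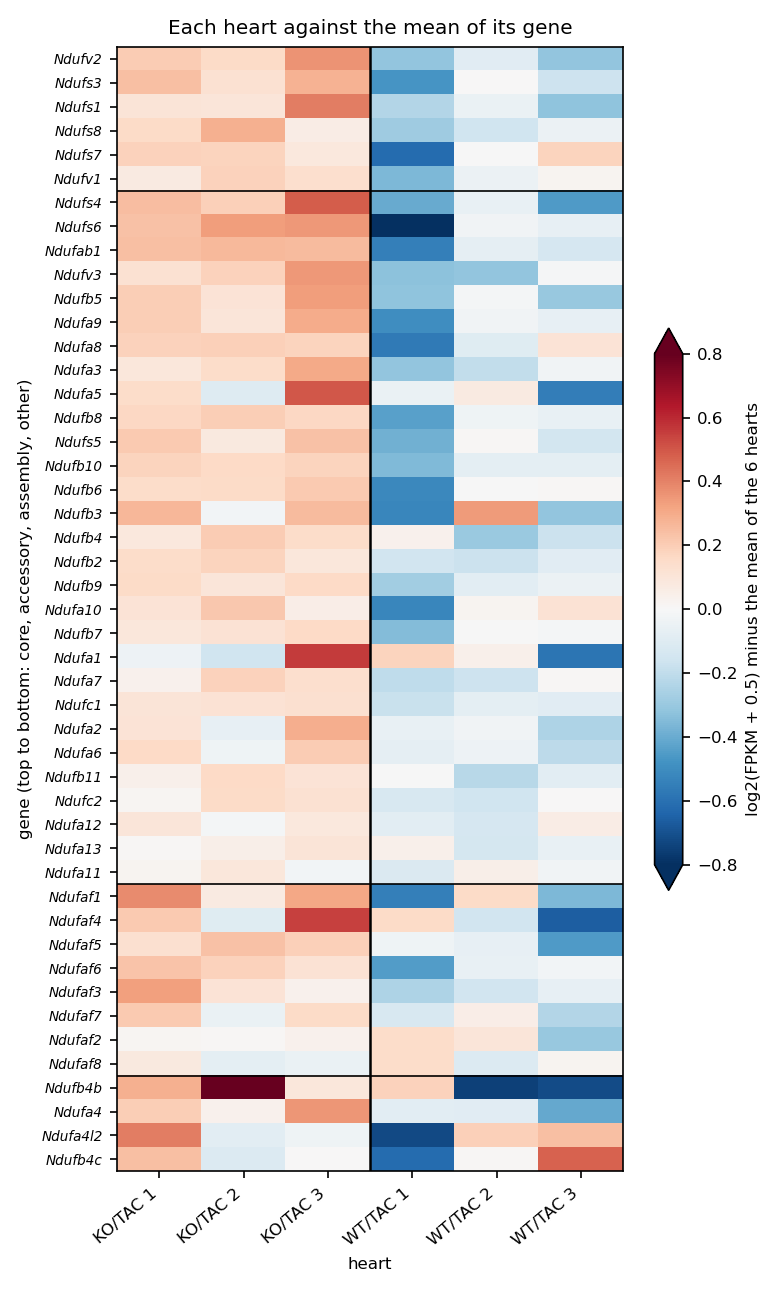
Difference of each heart from its gene's mean over the 6 hearts, in log2(FPKM + 0.5), for 47 of the 48 tested complex I genes, with KO/TAC hearts left of the vertical line and WT/TAC hearts right of it; values beyond 0.8 share the end colours. Over all 48 genes, WT/TAC 1 was lowest for 28, and 9 genes were highest in KO/TAC 3 and lowest in WT/TAC 3.

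Which heart was lowest differed between genes. None of the 48 tested genes had its lowest value in a KO/TAC heart, while 28 had it in WT/TAC 1, 12 in WT/TAC 3 and 8 in WT/TAC 2. The lowest value was in a WT/TAC heart for 63.0% of all genes tested. KO/TAC 3 was the highest heart for 21 genes, KO/TAC 2 for 15 and KO/TAC 1 for 8. These were 43.75, 31.25 and 16.67%, beside 15.0, 9.18 and 12.5% of all genes tested. A set of 9 of the 48 genes, beside 977 of all 12520 genes tested, was highest in KO/TAC 3 and lowest in WT/TAC 3: Ndufs1, Ndufv2, Ndufs4, Ndufa1, Ndufa2, Ndufa4, Ndufa5, Ndufa6 and Ndufaf4.

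Within this set the spread inside a group could exceed the difference between groups. Ndufa1, a small membrane-arm subunit encoded on the X chromosome, had 220.4, 203 and 334 FPKM in KO/TAC hearts, against 257, 233 and 151 FPKM in WT/TAC hearts. The groups overlapped, and the log2 fold change of 0.24 was smaller than its standard error (0.27, adjusted p = 0.767). It was 0.39 without WT/TAC 1. Ndufa5, of the peripheral arm, had 663, 556 and 842 FPKM in KO/TAC hearts, against 575, 628 and 406 FPKM in WT/TAC hearts (log2 fold change 0.36, SE 0.22, adjusted p = 0.599).

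Replicates of KO/TAC hearts lay closer together. The median coefficient of variation (the SD as a percent of the mean) over complex I genes was 5.69% in KO/TAC hearts and 12.8% in WT/TAC hearts, or 8.07% over WT/TAC hearts 2 and 3. It was lower in KO/TAC hearts for 42 of 48 complex I genes and for 76.8% of all genes tested, so the narrower spread was not confined to complex I.

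The 8 assembly factors were expressed at lower levels than the subunits, with means over the 6 hearts between 14.8 and 58.0 FPKM. Of these, 4 were called higher in KO/TAC hearts (Ndufaf1, Ndufaf5, Ndufaf6 and Ndufaf3) and 0 lower, with a median log2 fold change of 0.33. The count was 2 without WT/TAC 1, 2 without WT/TAC 3 and 0, 1 and 1 without KO/TAC 1, 2 and 3. The groups did not overlap for 3 of the 8, beside 8.46% of all genes tested with KO/TAC above WT/TAC, and 4.94% of all genes tested were called higher. Roles below are those described mainly in human cells.

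Ndufaf1, part of the complex that builds the membrane arm, had 45.5, 36.7 and 43.4 FPKM in KO/TAC hearts, against 23.8, 38.9 and 27.1 FPKM in WT/TAC hearts. WT/TAC 2 lay above KO/TAC 2, and the log2 fold change was 0.50 (SE 0.20, adjusted p = 0.418), or 0.36 and no longer called without WT/TAC 1. Ndufaf5, which hydroxylates Ndufs7, had 25.2, 27.2 and 26.3 FPKM in KO/TAC hearts, against 22.45, 22.0 and 16.6 FPKM in WT/TAC hearts (log2 fold change 0.37, SE 0.14, adjusted p = 0.412). Its groups did not overlap, and WT/TAC 3 was the lowest.

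Ndufaf6, needed for an early subassembly, had 21.3, 20.7 and 19.7 FPKM in KO/TAC hearts, against 13.2, 17.4 and 17.9 FPKM in WT/TAC hearts (log2 fold change 0.35, SE 0.14, adjusted p = 0.434). Ndufaf3 had 29.4, 25.2 and 23.9 FPKM in KO/TAC hearts, against 19.6, 20.9 and 22.2 FPKM in WT/TAC hearts (log2 fold change 0.31, SE 0.12, adjusted p = 0.418). Both had groups that did not overlap, and without WT/TAC 1 neither was called, with 0.22 for Ndufaf6 and 0.27 for Ndufaf3. Ndufaf4, the partner of Ndufaf3 in building the ubiquinone-binding part, had 16.65, 13.4 and 21.2 FPKM in KO/TAC hearts, against 15.98, 12.8 and 8.87 FPKM in WT/TAC hearts. Its groups overlapped and the difference of 0.44 did not pass the test (SE 0.25, adjusted p = 0.569), whereas the 0.63 without WT/TAC 1 was called.

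The other 3 showed small differences. Ndufaf7, a mitochondrial protein methyltransferase, had 17.5, 14.45 and 16.8 FPKM in KO/TAC hearts, against 13.7, 15.6 and 12.7 FPKM in WT/TAC hearts (log2 fold change 0.20, SE 0.13, adjusted p = 0.610). Ndufaf2, a late-acting factor related to Ndufa12, had 22.0, 21.9 and 22.3 FPKM in KO/TAC hearts, against 24.2, 23.35 and 17.6 FPKM in WT/TAC hearts (log2 fold change 0.04, SE 0.14, adjusted p = 0.948), or 0.12 without WT/TAC 1. Ndufaf8, which works with Ndufaf5, had 61.1, 54.7 and 55.7 FPKM in KO/TAC hearts, against 64.3, 53.6 and 58.65 FPKM in WT/TAC hearts. All 3 had overlapping groups, and Ndufaf8 was the one complex I gene with a negative log2 fold change (-0.04, SE 0.12, adjusted p = 0.930), which was 0.03 without WT/TAC 1.

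The genes outside these classes behaved unlike each other. Ndufa4, named for complex I but now assigned to cytochrome c oxidase, was the most abundant of the 49 genes. It had 1727, 1548 and 1927 FPKM in KO/TAC hearts, against 1423, 1417 and 1137 FPKM in WT/TAC hearts, without overlap (log2 fold change 0.39, SE 0.15, adjusted p = 0.420). Its hypoxia-induced relative Ndufa4l2 had 35.9, 25.3 and 26.4 FPKM in KO/TAC hearts, against 16.1, 30.8 and 31.95 FPKM in WT/TAC hearts. The groups overlapped, and its log2 fold change of 0.19 (SE 0.28, adjusted p = 0.833) was -0.12 without WT/TAC 1.

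Ndufb4b, a copy of Ndufb4, was called higher at a low level, with 3.18, 5.18 and 2.73 FPKM in KO/TAC hearts, against 2.94, 1.3 and 1.34 FPKM in WT/TAC hearts (log2 fold change 0.86, SE 0.33, adjusted p = 0.407). WT/TAC 1 lay inside the KO/TAC range. Ndufb4c had 103, 80.8 and 87.2 FPKM in KO/TAC hearts, against 56.6, 87.8 and 121 FPKM in WT/TAC hearts (log2 fold change 0.09, SE 0.27, adjusted p = 0.930), and its value was -0.20 without WT/TAC 1. The coding sequences of Ndufb4c and Ndufb4 are identical in the annotation, so the values of both are uncertain. Ndufa11b, a near copy of Ndufa11, was listed at 0, 0 and 0.07 FPKM in KO/TAC hearts and 0, 0.29 and 0 FPKM in WT/TAC hearts and was not tested.

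Copies and overlaps bear on how exactly reads can be placed. A coding sequence with at least 90% identity over at least 50% of its length was annotated elsewhere for 16 of the 47 complex I genes with a GENCODE transcript. Of the 21 called genes, 6 had such a copy (Ndufa4, Ndufab1, Ndufb2, Ndufs3, Ndufs5 and Ndufs6), and for 15 none was found. Ndufb4b, described above as a copy of Ndufb4, is among these 15, and genes without a GENCODE transcript were not searched. Another protein-coding gene overlapped 17 complex I genes, 8 of them called. The library kit kept strand, and whether the quantification used it is not given in the sources used here.

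**Figure D5:**
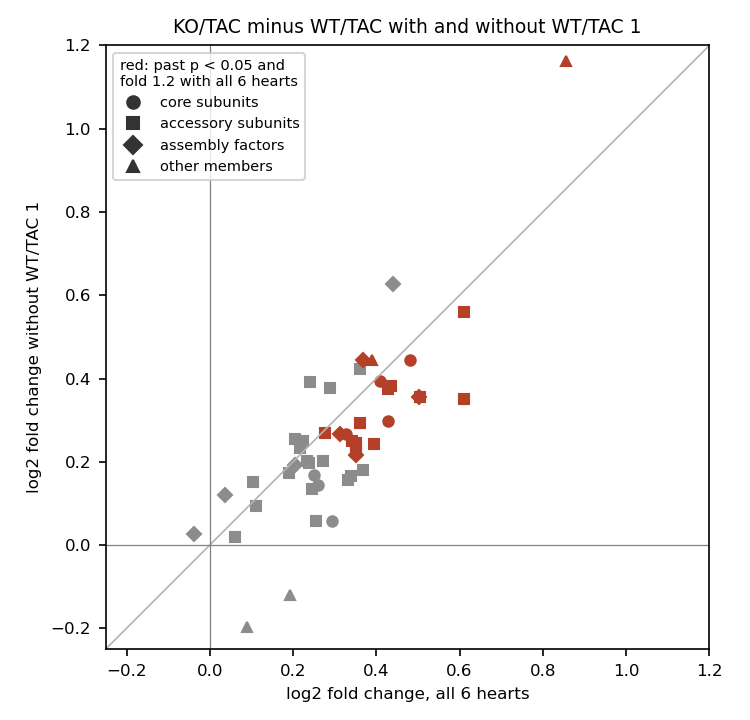
Fitted log2 fold change of the 48 tested complex I genes, KO/TAC minus WT/TAC, with all 6 hearts (x axis) against the fit without WT/TAC 1 (y axis), with one symbol per class and red for the 21 called genes. Below the diagonal lie 35 genes, and 46 of 48 lie above 0 on the y axis.

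Medians were also above 0 in other lists of respiratory chain genes. Over all genes tested the median was -0.005 and 4.94% were called higher. Of 12 tested complex I assembly factors without the Nduf prefix, 4 were called higher and 0 lower, with a median log2 fold change of 0.26. They were Tmem70, which helps to assemble ATP synthase and complex I (0.40), Nubpl, which delivers iron-sulfur clusters (0.46), Aifm1, which helps to import respiratory chain proteins (0.27), and Dmac2 (0.32). Without WT/TAC 1 the median was 0.14 and 2 were called, since Nubpl (0.34) and Dmac2 (0.23) no longer passed, and 0 were called with log2 Myl7 as a covariate. Of 41 nuclear-encoded subunits of complexes II to V, 12 were called higher and 0 lower with a median of 0.30, with 17 called higher without WT/TAC 1 and 6 with log2 Myl7 as a covariate. The smallest p-values there belonged to Atp5pb of ATP synthase (0.54), the heart-type cytochrome c oxidase subunit Cox7a1 (0.53), Cox5a (0.44) and the Rieske protein Uqcrfs1 of complex III (0.42). The ratio of the summed FPKM was 1.23 for complexes II to V and 1.24 for the complex I genes. The lists were described side by side and their difference was not tested.

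Among 10 regulators of respiratory chain genes, Tfam, which packages and transcribes mitochondrial DNA, was called higher with 22.2 ± 4.86 FPKM in KO/TAC hearts and 16.0 ± 2.40 FPKM in WT/TAC hearts (SD, n = 3 each, log2 fold change 0.45, limma adjusted p = 0.443). Without WT/TAC 1 its log2 fold change was 0.48 with a larger standard error (0.21, beside 0.19), and it was not called. The coactivator Ppargc1a had 12.2 ± 1.197 FPKM in KO/TAC hearts and 9.82 ± 0.811 FPKM in WT/TAC hearts (SD, n = 3 each) and did not pass the test (log2 fold change 0.30, limma adjusted p = 0.452). It was called higher without WT/TAC 1 (0.35) and with log2 Myl7 as a covariate (0.39), and the study's own list has it as up. With all 6 hearts its unadjusted limma p was 0.053, beside 0.049 for Tfam. None of the 10 was called lower, and the 1 called higher stands beside 4.94% of all genes tested. Nrf1 and Yy1 had negative log2 fold changes (-0.15 and -0.13) and were not called. For Yy1 every KO/TAC heart was below every WT/TAC heart, where groups did not overlap for 18.3% of all genes tested in either direction.

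Since 21 complex I genes were called in 1 direction, the promoters of all of them were searched for motifs of factors known to drive nuclear respiratory genes. A promoter here means 250 bases before to 50 bases after an annotated start, 300 bases in all, and 41 of the 49 genes had one in the RefSeq table for GRCm38.p6. Both strands were searched. The YY1 motif AAGATGGC lay in the promoter of 8 of 41 complex I genes (19.5%), beside 5.17% of the 9963 tested genes with a promoter. In all 8 it lay on the gene's own strand and downstream of the start. The NRF1 motif GCGCNTGCG lay in 11 of 41 (26.8%), beside 15.0% of the tested genes.

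Other motifs were rare. The GABP motif CCGGAAGT was found in 1 of 41 complex I promoters (2.44%, beside 8.80%), and the CREB motif TGACGTCA in 3 (7.32%, beside 3.44%). The core of the estrogen-related receptor motif, AAGGTCA, was found in 3 (7.32%, beside 3.91%), and its longer form TCAAGGTCA in 0 (beside 0.341%). The short form lies inside the long one.

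Both called and uncalled genes held these motifs. NRF1 was found in 4 of 19 called genes with a promoter and in 7 of 22 tested genes not called, and YY1 in 5 of 19 called genes and in 3 of 22 not called. Ndufs4 and Ndufs6, the subunits with the largest fold changes, both held the YY1 motif, and Ndufs6 also held the NRF1 motif. Ndufb2 held the short estrogen-related receptor motif and the CREB motif. Their promoters follow with the motifs in capitals, and a match is a match of letters and not a measured binding site.

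Ndufs4, minus strand of chr13:114388045-114388344: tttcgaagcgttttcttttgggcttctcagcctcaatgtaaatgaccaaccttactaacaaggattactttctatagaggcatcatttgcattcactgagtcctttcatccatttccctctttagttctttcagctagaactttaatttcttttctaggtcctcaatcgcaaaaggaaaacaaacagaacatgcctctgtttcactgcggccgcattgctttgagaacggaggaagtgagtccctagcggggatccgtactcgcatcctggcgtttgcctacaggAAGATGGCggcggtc

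Ndufs6, minus strand of chr13:73328433-73328732: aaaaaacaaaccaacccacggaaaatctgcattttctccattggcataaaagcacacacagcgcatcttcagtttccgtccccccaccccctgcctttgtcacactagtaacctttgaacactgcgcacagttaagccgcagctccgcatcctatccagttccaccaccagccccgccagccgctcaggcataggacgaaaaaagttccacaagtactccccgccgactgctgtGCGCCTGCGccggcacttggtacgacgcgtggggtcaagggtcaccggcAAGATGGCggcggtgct

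Ndufb2, plus strand of chr6:39592315-39592614: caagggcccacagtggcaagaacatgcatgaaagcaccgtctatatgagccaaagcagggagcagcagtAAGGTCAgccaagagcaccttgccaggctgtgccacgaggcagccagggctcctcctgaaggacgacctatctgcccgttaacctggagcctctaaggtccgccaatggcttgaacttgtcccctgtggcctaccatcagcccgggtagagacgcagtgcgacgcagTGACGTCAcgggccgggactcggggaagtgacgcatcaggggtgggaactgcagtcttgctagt

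The Ndufv2 and Ndufab1 promoters, of the other genes called in every fit that left out a library, held none of these motifs.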

How the data were processed

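FPKM values per gene were deposited by the authors for 6 hearts, made with HISAT2 2.0.5 and StringTie 1.3.3 according to the submitters' notes, which name both mm9 and hg38, and rounded to 2 decimals. Total RNA of heart tissue went into KAPA stranded libraries. RefSeq symbols were found for 17441 of 17570 Entrez IDs. The 12520 genes that averaged 0.5 FPKM or more were fitted as log2(FPKM + 0.5) with limma 3.58.1 (lmFit, eBayes with a variance trend, R 4.3.3, two-sided, Benjamini-Hochberg over all genes tested), since counts were not used and depth is therefore unknown. limma stood in place of the 2-sample test of the study, with its limits kept (p under 0.05, fold of at least 1.2). Calls can therefore differ from the study's own list, which has Ndufb9, Ndufb4 and Ppargc1a as up and lacks Ndufaf1. A fold change on this scale understates low genes. The fit was also run on simulated data with independent errors and the same spread in both groups. Those data lack the unequal spread of the real groups and the outlying WT/TAC 1, so the run does not bear on these.

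Genes named with values were the nuclear core subunits, every called gene, all Ndufaf genes, the lowest 3 by fold change, the highest 2 by mean FPKM and the genes outside the classes (1 of the genes this rule names is not reported here), and for other lists at most 4 called genes by smallest p. Ndufa8, Ndufa1, Ndufa5 and Ppargc1a were added after their values were seen. The members and lists were chosen with earlier results of these data known. Alternatives were another pseudocount, filter, scaling, tool, a replicate block, log2 Myl7 as a covariate and each library left out.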

Additional observations from a re-analysis of the deposited data

How the results depend on the processing

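In every fit no complex I gene was called lower, and no complex I gene that was called turned its direction. The median log2 fold change over complex I genes lay between 0.24 and 0.34 over the settings that kept all 6 hearts and between 0.24 and 0.35 with a library left out. Over the 48 genes and all alternatives, 684 results kept their side of the limits, 118 lost the call and 13 gained it.

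Counts of genes called higher moved more, and the cause was not tested. With log2 Myl7 as a covariate they were 10 complex I genes, 2 core subunits, 6 accessory subunits and 1 assembly factor. Quantile normalization gave 14 complex I genes, a gene-by-gene 2-sample test on log2 values 15 and no filter on low values 17, beside 21. The count was 18 without a variance trend, 19 with rescaling by median ratios and 20 by a 2-sample test on FPKM. With quantile normalization 5 accessory subunits were called, and the share of calls that were higher over all genes was 50.2%, beside 44.6%. Among assembly factors 1 was called by a gene-by-gene 2-sample test on log2 values and 2 without a variance trend. At an adjusted p under 0.05 the counts were 2 higher and 0 lower over all genes, and 0 for complex I genes, core subunits, accessory subunits and assembly factors. With a minimum mean of 5 FPKM, which tests fewer genes, 510 of all genes were lower.

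With the replicate number as a block 355 of all genes were called higher, with 6 complex I genes, 1 core subunit, 4 accessory subunits and 0 assembly factors. No likeness of same-numbered samples was seen. Same-numbered KO/TAC and WT/TAC hearts deviated from their group means with correlations across genes of -0.29, -0.57 and -0.35, and no heart correlated best with its own number. With 3 hearts a group the deviations within a group depend on each other, so these correlations cannot exclude that a number marks shared handling.

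Leaving out each library in turn gave 260 to 939 genes higher and 366 to 1181 lower over all genes. The counts were 5 to 18 for complex I genes, 2 to 4 for core subunits, 2 to 12 for accessory subunits and 0 to 3 for assembly factors. The median of the assembly factors lay between 0.23 (without WT/TAC 3) and 0.36. Depth cannot be read from these files, so its part was not tested.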
